A study of Mus musculus with 10 samples.

Results

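The 7 genes described here encode parts of the Hedgehog pathway: the ligand Ihh, the receptor Ptch1, the ligand-binding inhibitor Hhip, the signal transducer Smo and the transcription factors Gli1, Gli2 and Gli3. They were chosen by name, as every non-control probe on the array whose gene name was one of the 7, which gave 11 of 55681 probes and 7 of 34734 distinct gene names. All 7 genes were measured in 10 cultures of mouse mesenchymal stem cells of the FVB strain, in 5 groups of 2 cultures each, with 1 single-colour oligonucleotide array per culture. Wild-type ASC came from fat and wild-type BM-MSC from bone marrow, and both are labelled wild type. Null ASC and null BM-MSC are labelled as lacking Rb (the gene Rb1) and p53 (the gene Trp53). The culture protocol says that their alleles carried loxP sites, that the cells spent 10 days in osteogenic medium and that an adenovirus driving Cre recombinase from the CMV promoter (Ad-CMV-Cre), which acts in any cell type it infects, then removed the flanked sequence. The source labels speak of mice that were themselves null, and the sources do not settle which is right. The tumor line was grown from a tumor that formed under the skin of NSG mice, which lack most immune cells, after inoculation with null BM-MSC of the same 10-day priming. Both of its arrays came from cultures of that line, so they carry no spread between tumors. The labels call null BM-MSC and the tumor line tumorigenic and the other 3 groups non-tumorigenic, and all cultures were used between passages 2 and 5. Null and wild-type groups therefore differ in genotype and in osteogenic priming, which cannot be told apart here. The protocol speaks of infecting all MSC cultures and does not say whether wild-type cultures were among them. No source used here gives the age of the mice.

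Hedgehog ligands are secreted proteins that bind the membrane protein Ptch1. Without ligand, Ptch1 keeps Smo inactive, and Gli3 and part of Gli2 are processed into repressors. With ligand, Smo collects in the primary cilium and full-length Gli2 and Gli3 activate target genes, among them Gli1, Ptch1 and Hhip, so that levels of these 3 transcripts are in common use as a readout of the pathway. In the skeleton Ihh is made by prehypertrophic chondrocytes, acts on osteoblast progenitors and sustains the parathyroid hormone-related protein (Pthlh) that delays chondrocyte maturation.

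The share of spots well above background was 53.3% to 58.4% per array and no spot was saturated. All 10 MSC markers (Eng, Thy1, Nt5e, Ly6a, Cd44, Itgb1, Pdgfra, Pdgfrb, Vcam1 and Alcam) were detected above background on all 10 arrays. Levels are log2 signals relative to the 75th percentile of the array, as mean ± SD of 2 cultures, and they are comparable for a single probe across arrays, not between probes. The levels of the MSC markers differed between groups. Eng was at -2.12 ± 0.07 in the tumor line and 3.13 ± 0.05 in null BM-MSC, while Nt5e (2.39 ± 0.09 and 1.20 ± 0.06) and Alcam (3.17 ± 0.03 and -1.30 ± 0.13) were higher in the tumor line. In wild-type ASC Rb1 was at 1.31 ± 0.0019 and Trp53 at 1.06 ± 0.07. Rb1 was at 1.91 ± 0.01 in wild-type BM-MSC, 0.60 ± 0.08 in null BM-MSC, -1.94 ± 0.04 in null ASC and -1.97 ± 0.01 in the tumor line. Trp53 was at 0.77 ± 0.08, -1.0 ± 0.16, -4.81 ± 0.45 and -7.58 ± 0.02 in the same groups. The cultures labelled null BM-MSC thus kept more signal of both targeted genes than null ASC and the tumor line did, and whether the probes lie in the deleted parts was not tested. The 8 arrays of primary cultures lay on 1 slide, with wild-type cultures in the first row and null cultures in the second row of positions, and ASC and BM-MSC in separate columns. The tumor line arrays shared another slide. Slide and tumor line, row and null status, and column and tissue cannot be told apart.

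Of the 7 genes, 6 have a promoter window in the RefSeq table (GRCm38.p6) of 300 bases, 250 before the transcription start and 50 after it, and no window of Gli1 was read. The binding consensus of Gli proteins, GACCACCCA, was searched for on both strands and occurred in none of the 6 windows, also with 1 mismatch allowed. Of all 32851 windows of this length 0.253% held the exact consensus and 6.74% held it with at most 1 mismatch. After that search, its inner 6 letters were searched for as well. These letters, CCACCC or GGGTGG on the other strand, occurred 2 times before the start of Gli2 and of Ihh and 1 time before those of Gli3, Hhip and Smo, and were absent from the Ptch1 window. Of all windows 31.5% held these 6 letters. The 6 windows read had a GC content of 67.3% to 76.3%, and the share over all windows was not matched for it. The 250 bases before the start are shown for Gli2 and Hhip, whose levels differed most between tissues below, and for Ptch1, the receptor that is itself a common readout. They are written 5′ to 3′ on the strand of the gene, which is the minus strand for all 3, with the 6 letters in capitals. The intervals are chr1:119053620-119053869 for Gli2, chr8:80058009-80058258 for Hhip and chr13:63565736-63565985 for Ptch1.
Gli2: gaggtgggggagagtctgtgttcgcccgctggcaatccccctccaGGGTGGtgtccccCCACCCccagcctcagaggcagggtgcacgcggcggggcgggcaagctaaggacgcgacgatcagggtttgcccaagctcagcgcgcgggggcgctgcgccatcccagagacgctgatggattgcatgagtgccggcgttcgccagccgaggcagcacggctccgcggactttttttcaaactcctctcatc
Hhip: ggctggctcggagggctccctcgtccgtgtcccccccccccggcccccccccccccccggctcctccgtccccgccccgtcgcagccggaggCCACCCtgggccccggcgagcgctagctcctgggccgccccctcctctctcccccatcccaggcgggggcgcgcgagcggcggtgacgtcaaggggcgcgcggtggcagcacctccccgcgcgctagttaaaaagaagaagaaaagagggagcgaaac
Ptch1: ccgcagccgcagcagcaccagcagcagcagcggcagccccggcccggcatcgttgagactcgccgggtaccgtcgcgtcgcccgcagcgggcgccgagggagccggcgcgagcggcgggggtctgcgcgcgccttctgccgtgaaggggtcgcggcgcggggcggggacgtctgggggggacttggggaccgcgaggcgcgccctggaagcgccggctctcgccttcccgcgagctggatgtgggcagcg
These letters describe the windows only, and no binding was measured.

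**Figure D1:**
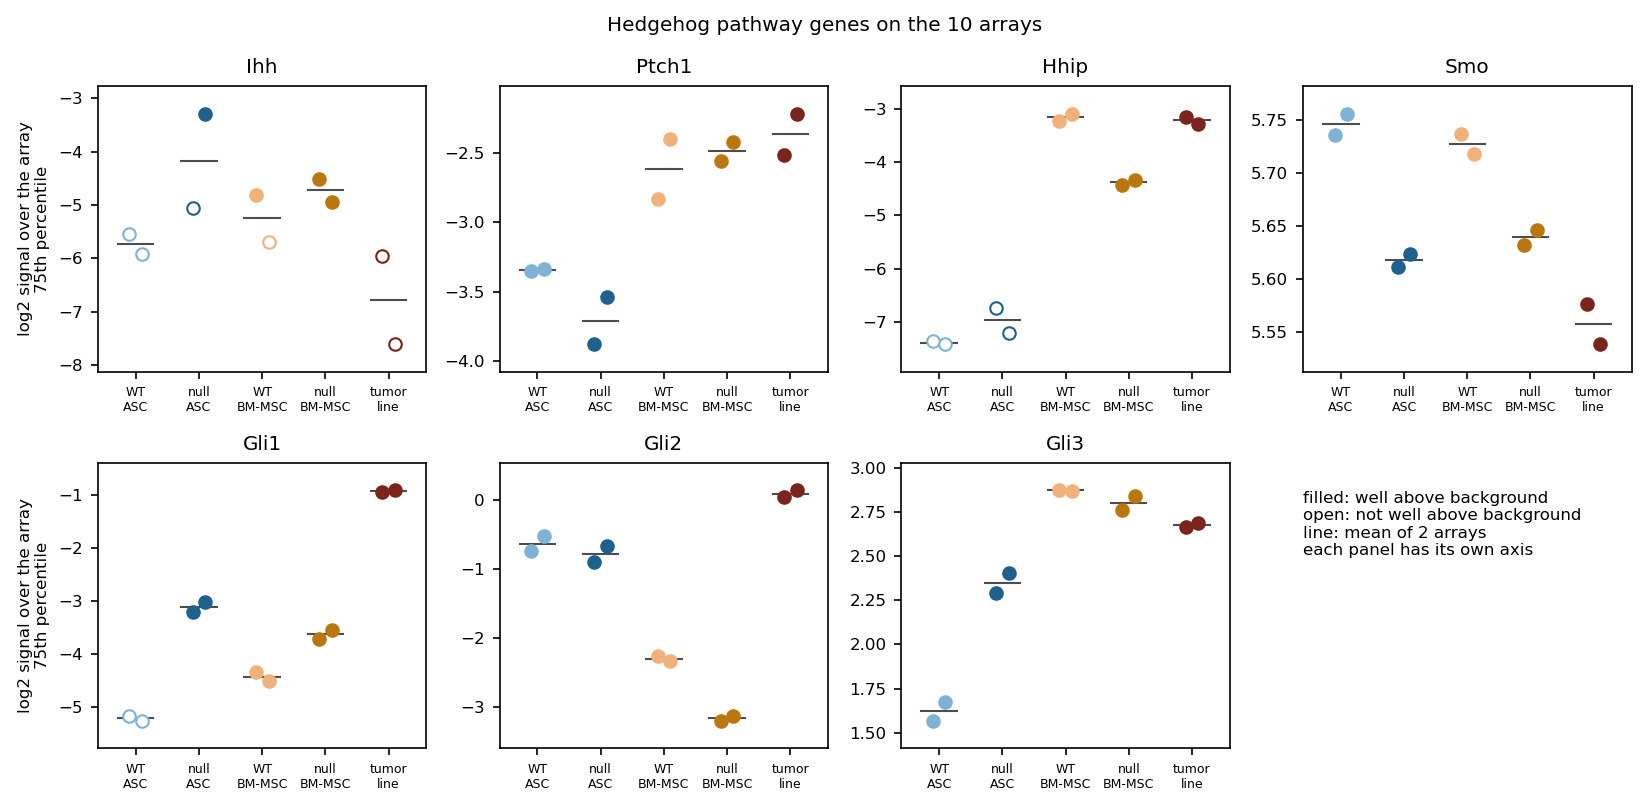
Level of each gene (log2 signal over the array's 75th percentile) on the 10 arrays, by group, with the mean of 2 arrays as a line and spots not well above background as open circles; each panel has its own axis. Hhip was open on all 4 ASC arrays, Gli1 was highest on both tumor line arrays, and Gli2 was lowest on both null BM-MSC arrays.

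Ihh, the only Hedgehog ligand of the 3 in mice that was tested, was near the limit of detection. Its probe (chr1:74991906-74991965, minus strand, mm9) was well above background on 4 of 10 arrays. It read -4.50 and -4.95 in null BM-MSC, both well above background. It read -3.29 and -5.05 in null ASC and -4.80 and -5.69 in wild-type BM-MSC, with only the higher array of each group well above background. It read -5.54 and -5.92 in wild-type ASC and -5.96 and -7.61 in the tumor line, all not well above background. Both tumor line arrays lay below all others, and both null groups lay above wild-type ASC, while wild-type BM-MSC overlapped null ASC, null BM-MSC and wild-type ASC. No neighbours in the order of the group means (null ASC, null BM-MSC, wild-type BM-MSC, wild-type ASC, tumor line) differed past the threshold. The ligand genes Shh and Dhh were not well above background on any array.

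Ptch1, which binds the ligand and holds Smo inactive, followed tissue of origin. Its brighter probe (chr13:63612879-63612938, minus strand, mm9) was well above background on all 10 arrays. It read -3.34 and -3.35 in wild-type ASC and -3.54 and -3.88 in null ASC. In marrow-derived cells it read -2.40 and -2.83 in wild-type BM-MSC, -2.42 and -2.56 in null BM-MSC and -2.22 and -2.51 in the tumor line. Every marrow-derived array lay above every ASC array, and the 3 marrow-derived groups overlapped. In the order of group means (tumor line, null BM-MSC, wild-type BM-MSC, wild-type ASC, null ASC), the only neighbours past the threshold were the wild-type groups of the 2 tissues. A second Ptch1 probe, for another transcript, was well above background on no array. The 3 genes with the most similar pattern, by the root mean square difference over the 10 arrays after centring each gene, were Sat1 (0.152), Myo6 (0.158) and Fam189b (0.172), among 14614 genes named by symbol.

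Hhip, a membrane and secreted protein that binds Hedgehog ligands and keeps them from Ptch1, was detected in marrow-derived cells only among these arrays. Its brighter probe (chr8:82494280-82494339, minus strand, mm9) read -7.36 and -7.42 in wild-type ASC and -6.74 and -7.20 in null ASC, with none of the 4 arrays well above background. It read -3.10 and -3.23 in wild-type BM-MSC, -3.16 and -3.29 in the tumor line and -4.33 and -4.43 in null BM-MSC, with all 6 arrays well above background. Wild-type BM-MSC and the tumor line overlapped, null BM-MSC lay below both, and the ASC groups lay below all 3. Among neighbours in that order, wild-type BM-MSC and the tumor line did not differ past the threshold (gap of 0.06 ± 0.15, adjusted p = 0.744). In bulk RNA, fewer expressing cells and less RNA per cell cannot be told apart. The second Hhip probe, in the same transcript, was well above background on no array, so Hhip rests on 1 probe. The genes with the most similar pattern were Smad9 (root mean square difference of 0.298), Kcnf1 (0.387) and Tmem139 (0.390).

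Smo, the membrane protein that passes the signal on to the Gli proteins, has 2 probes that were well above background on all 10 arrays and gave different sizes of change. The brighter probe (chr6:29711225-29711284, plus strand, mm9) read 5.74 and 5.76 in wild-type ASC, 5.72 and 5.74 in wild-type BM-MSC, 5.63 and 5.65 in null BM-MSC, 5.61 and 5.62 in null ASC and 5.54 and 5.58 in the tumor line. Its group means spanned 0.19 log2 in all, and no neighbours in this order differed past the threshold. The second probe (chr6:29710919-29710978) read 2.07 and 2.12 in wild-type BM-MSC, 1.86 and 1.93 in null BM-MSC, 1.85 and 1.89 in wild-type ASC, 1.37 and 1.45 in null ASC and 0.95 and 1.10 in the tumor line. Its group means spanned 1.07 log2, with the tumor line lowest by both probes. The genes with the pattern most similar to the brighter probe were Pigm (root mean square difference of 0.0392), Rbx1 (0.0410) and Bola3 (0.0430).

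**Figure D2:**
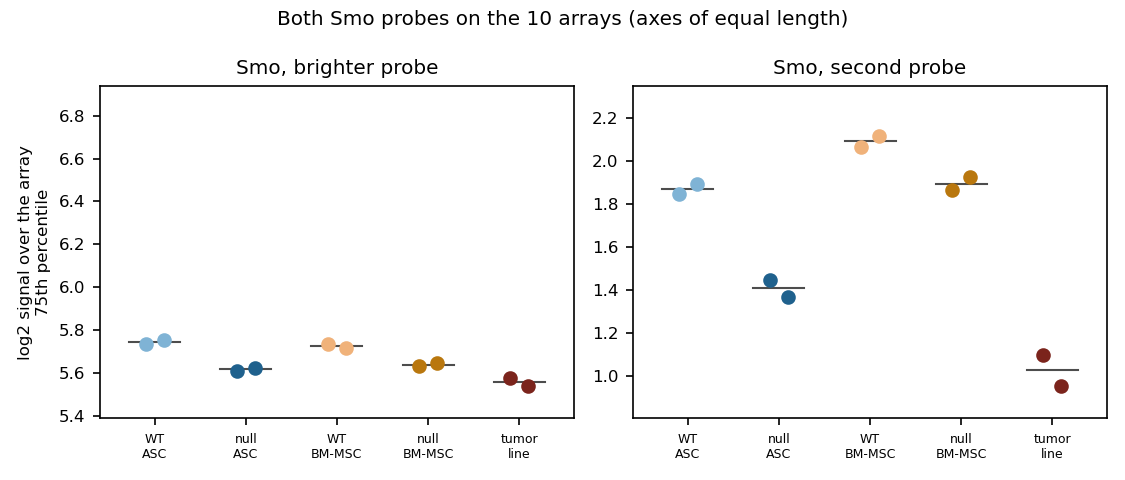
Level of Smo (log2 signal over the array's 75th percentile) by its brighter and its second probe on the 10 arrays, by group, on axes of equal length, with the mean of 2 arrays as a line. The tumor line is lowest by both probes, and the group means span 0.19 by the brighter and 1.07 by the second probe.

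Gli1, the Gli protein that has only activator function and whose transcript is a target of the pathway, varied over 4.28 log2 between group means. Its brighter probe (chr10:126766967-126767026, minus strand, mm9) read -0.92 and -0.95 in the tumor line, -3.03 and -3.21 in null ASC, -3.55 and -3.72 in null BM-MSC and -4.35 and -4.52 in wild-type BM-MSC, all well above background. It read -5.17 and -5.26 in wild-type ASC, both not well above background. No groups overlapped, and all 4 pairs of neighbours in this order differed past the threshold, and the second and the last of these calls were lost in other settings (given with the tissue comparisons). The other Gli1 probe, for another transcript, was well above background on no array. The most similar patterns were those of Guca1a (root mean square difference of 0.318), Plk4 (0.326) and Cenpe (0.377).

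Gli2, the main activator among the Gli proteins when ligand is present, was highest in the tumor line and lowest in null BM-MSC. Its single probe (chr1:120731255-120731314, minus strand, mm9) was well above background on all 10 arrays. It read 0.04 and 0.14 in the tumor line, -0.52 and -0.74 in wild-type ASC, -0.66 and -0.90 in null ASC, -2.26 and -2.33 in wild-type BM-MSC and -3.13 and -3.19 in null BM-MSC. The ASC groups overlapped and did not differ past the threshold, and the other 3 neighbours in this order did not overlap and differed. The most similar patterns were those of Mlh3 (root mean square difference of 0.232), Eda (0.260) and Strbp (0.287).

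Gli3, which acts mainly as a repressor without ligand, was lower in ASC. Its single probe (chr13:15821502-15821561, plus strand, mm9) read 2.87 on both wild-type BM-MSC arrays, 2.76 and 2.84 in null BM-MSC, 2.67 and 2.69 on the tumor line arrays, 2.29 and 2.41 in null ASC and 1.57 and 1.68 in wild-type ASC, all well above background. The groups did not overlap. The 3 marrow-derived groups did not differ past the threshold as neighbours, while the tumor line against null ASC and null ASC against wild-type ASC did. The most similar patterns were those of Lipo3 (root mean square difference of 0.106), Trps1 (0.106) and S100a4 (0.118).

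Across these orders, 3 of the neighbouring pairs (the tumor line with null ASC, the tumor line with wild-type ASC and wild-type BM-MSC with null ASC) belong to comparisons added after the data were seen, in which 66.3%, 70.2% and 57.1% of all genes tested were called.

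**Figure D3:**
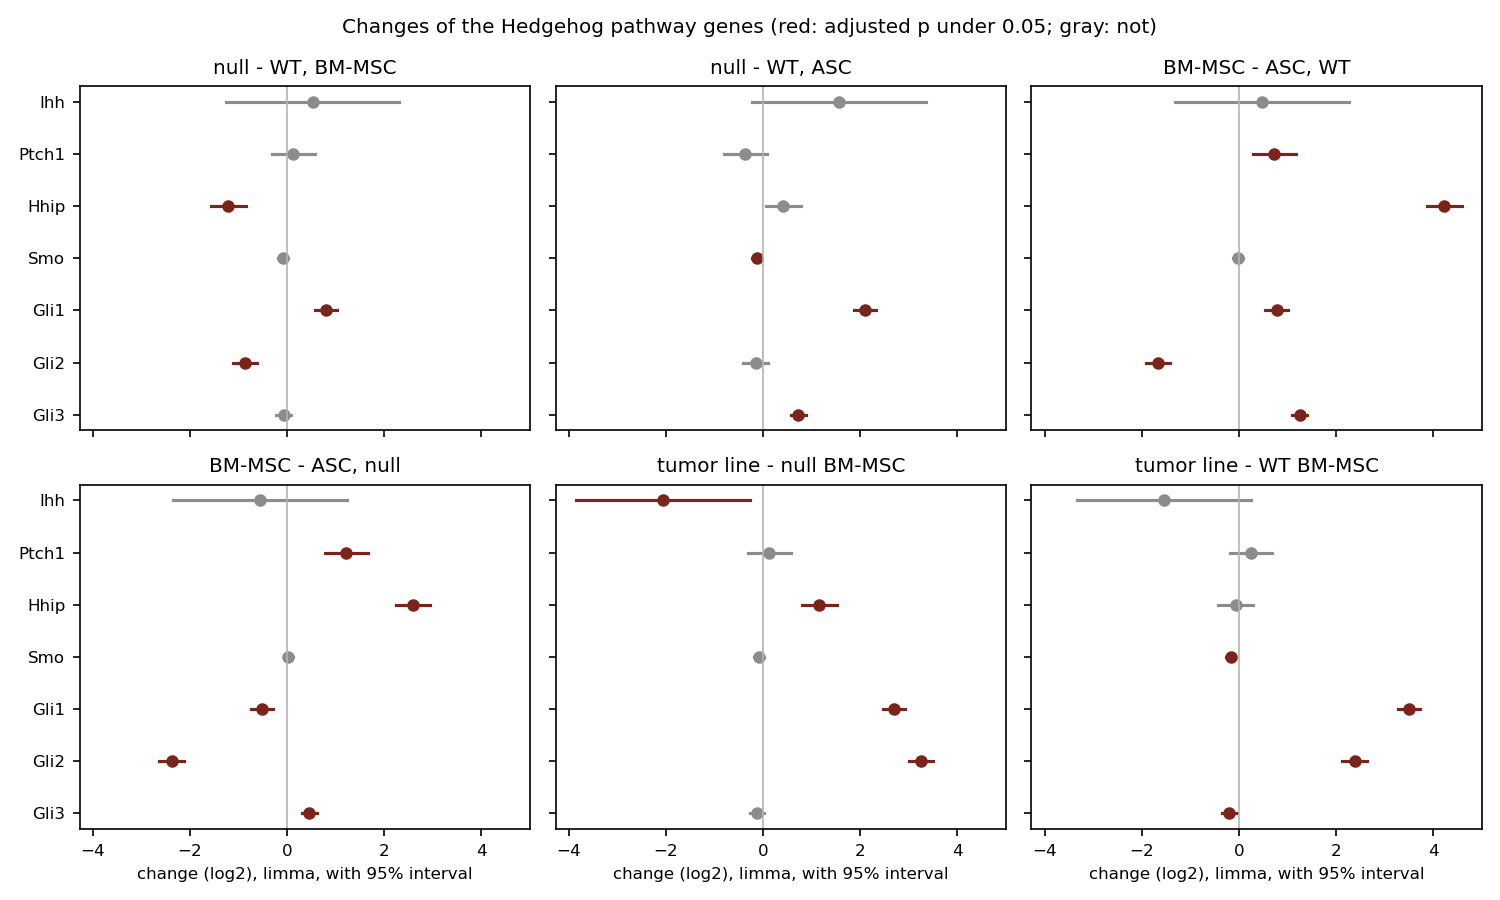
Change of each gene (log2, limma, point) with its 95% interval (line) in 6 comparisons, in red where the adjusted p was under 0.05. Gli1 lies right of 0 in all panels except BM-MSC against ASC in null cells, and Hhip and Gli1 points set against wild-type ASC, Hhip against null ASC and Ihh against the tumor line or wild-type ASC rest on a group not well above background.

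The first question was how null cells differ from wild-type cells of the same tissue. In BM-MSC, Gli1 rose by 0.80 ± 0.10 log2 (SE; adjusted p = 0.00101), a 1.74-fold change, while Gli2 fell by 0.87 ± 0.11 (adjusted p = 0.00106) and Hhip fell by 1.22 ± 0.15 (adjusted p = 0.00109), a level 2.33-fold lower. The 3 called were 42.9% of the 7 genes, against 39.5% of all 22596 genes tested, so the share was near the background. Ptch1 (0.13, 95% interval -0.32 to 0.57), Gli3 (-0.07, -0.22 to 0.08), Smo (-0.09, -0.18 to 0.01) and Ihh (0.52, -1.26 to 2.31) did not pass. Of the 3 transcripts in use as readouts, Gli1 was higher, Hhip lower and Ptch1 not called. With normexp background correction of the raw signals and an offset of 50 added to every signal, which is large beside the dim probes described here, all 3 calls held and their sizes shrank to 0.35, -0.41 and -0.41. The osteoblast markers summed to 165 to 190 in wild-type and 234 to 249 in null BM-MSC, in multiples of the 75th percentile. On both arrays of each group 9 of 9 were detected. Most of the osteoblast sum was Col1a1 (mean level of 7.23 in wild-type and 7.30 in null BM-MSC). Ibsp (2.37 and 5.69) stood higher in null BM-MSC, Dmp1 was at -1.51 and -1.45, and Spp1 alone stood lower (4.21 and 3.66). The chondrocyte markers summed to 70.1 to 76.7 and 40.5 to 41.3, with 5 of 8 detected in each. Most of that sum was Col2a1 (mean level of 6.09 in wild-type and 5.00 in null BM-MSC), while Hapln1 (-4.05 and -0.71) and Comp (0.95 and 2.62) stood higher in null BM-MSC. The part of these cell types in the result was not tested.

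In ASC, the Gli1 signal was 4.28-fold higher in null than in wild-type cells (adjusted p = 2.02e-05). The Gli1 probe was not well above background in wild-type ASC, so this fold is a fitted value. Gli3 rose by 0.73 ± 0.06 (adjusted p = 0.000209), a 1.65-fold change. Smo fell by 0.13 ± 0.04 (adjusted p = 0.0403) by the brighter probe, a call that was lost in 20 of 24 alternative settings, and by 0.46 ± 0.07 (adjusted p = 0.00232) by the second. The 3 called were 42.9% of the 7 genes, against 41.5% of all genes tested. Gli2 (-0.15, 95% interval -0.40 to 0.11), Ptch1 (-0.37, -0.81 to 0.08) and Ihh (1.57, -0.22 to 3.35) did not pass, and Hhip was not well above background in either group. The Gli1 change was 0.57 with normexp, still called. The chondrocyte markers summed to 0.324 to 0.338 in wild-type and 1.14 to 1.18 in null ASC, with 2 and 5 of 8 detected on both arrays. The osteoblast markers summed to 153 to 155 and 144 to 149, with 6 and 4 of 9 detected. Nearly all of that sum was Col1a1 (mean level of 7.26 in wild-type and 7.19 in null ASC), while Ibsp, Dmp1 and Phex were not well above background in either group. Their part in the result was not tested.

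The null effects of the 2 tissues were set against each other within the same fit. The fitted difference was called for 4 of the 7 genes, each with a lower value in BM-MSC than in ASC. Of all genes, 31.8% were called in either direction and 16.6% lower. For 2 of these 4, Hhip and Gli1, the ASC effect was not measured on both sides, so their fitted differences are no measured sizes. The value of Hhip supports no difference in either direction, so the count of 4 rests in part on unmeasured effects. For Gli1, with wild-type ASC not well above background, the fitted difference was -1.30 ± 0.14 (adjusted p = 0.000870). For Gli3, which was called in ASC alone, it was -0.80 ± 0.09 (adjusted p = 0.00107), and for Gli2, called in BM-MSC alone, it was -0.72 ± 0.15 (adjusted p = 0.0126). For Hhip it was -1.64 ± 0.21 (adjusted p = 0.00191), with both ASC groups not well above background. With normexp the differences of Gli1 (-0.22, adjusted p = 0.0711) and Gli2 (-0.29, adjusted p = 0.0839) no longer passed. The Gli2 difference was also lost with scaling to the median (-0.66, adjusted p = 0.0760), and that of Gli1 with the mean of both probes (-0.52, adjusted p = 0.0978). The Hhip difference was -0.30 with normexp (adjusted p = 0.0376). Null BM-MSC kept part of the Rb1 and Trp53 signal, so the effects compared differ in the extent of the loss that these probes showed. The part of that in the result was not tested.

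The second question was how the tissues differ. Among wild-type cells, Hhip was at least 5.23-fold higher in BM-MSC than in ASC (adjusted p = 1.90e-06), Gli3 was higher by 1.25 ± 0.06 (adjusted p = 8.56e-06) and Gli2 was lower by 1.66 ± 0.11 (adjusted p = 2.46e-05; level 3.17-fold higher in ASC). Ptch1 was higher by 0.73 ± 0.18 (adjusted p = 0.0148), a 1.66-fold change. Gli1 was 1.71-fold higher (adjusted p = 0.000598), a fitted value against wild-type ASC, where its probe was not well above background. These 5 of 7 were 71.4%, against 54% of all genes tested, and Smo and Ihh did not pass. The Ptch1 call was lost without wild-type ASC 1 (adjusted p = 0.0590), without wild-type ASC 2 (adjusted p = 0.0561) or without wild-type BM-MSC 2 (adjusted p = 0.0723). The Gli1 call was lost with normexp (0.04, adjusted p = 0.567) and with the mean of both probes (0.24, adjusted p = 0.200). With normexp the change of Hhip was 0.79 and that of Ptch1 0.30, both still called.

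Among null cells the same sign was found for Hhip, at least 1.83-fold higher in BM-MSC (adjusted p = 1.50e-05), for Ptch1, higher by 1.22 ± 0.18 (adjusted p = 0.00141; 2.33-fold), for Gli3, higher by 0.45 ± 0.06 (adjusted p = 0.000934), and for Gli2, lower by 2.38 ± 0.11 (adjusted p = 4.54e-06; level 5.21-fold higher in ASC). In wild-type cells the fitted Gli1 change was positive, with wild-type ASC not well above background. In null cells Gli1 was lower in BM-MSC than in ASC by 0.52 ± 0.10 (adjusted p = 0.00380). That call was lost with the mean of both Gli1 probes (-0.28, adjusted p = 0.136), and with normexp the changes of Gli1 (-0.18), Hhip (0.50), Ptch1 (0.62) and Gli2 (-1.49) were smaller and still called. The 5 called were 71.4% of the 7, against 55.4% of all genes. By the second probe Smo was higher in BM-MSC by 0.22 ± 0.07 in wild-type (adjusted p = 0.0330) and by 0.49 ± 0.07 in null cells (adjusted p = 0.00107). The chondrocyte markers summed to 0.324 to 0.338 in wild-type ASC against 70.1 to 76.7 in wild-type BM-MSC. Most of the latter sum was Col2a1 (mean level of 6.09). Sox9, Comp, Hapln1 and Col10a1 also stood higher in wild-type BM-MSC, while Acan (-5.62 against -5.12 in wild-type ASC) and Col9a1 (-5.79 against -4.84) did not. The adipocyte markers summed to 1.27 to 1.35 against 13.5 to 14.1, with 2 of 7 and 4 of 7 detected and Adipoq well above background on 1 array. The part of these cell types in the result was not tested.

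The third question was how the tumor line differs from the cells it came from. Against null BM-MSC, Gli2 rose by 3.25 ± 0.11 (adjusted p = 8.33e-07), a 9.54-fold change, Gli1 rose by 2.70 ± 0.10 (adjusted p = 1.23e-06), a 6.5-fold change, and Hhip rose by 1.16 ± 0.15 (adjusted p = 0.000477), a 2.23-fold change. Ihh was at least 1.75-fold lower, with both tumor line arrays not well above background (adjusted p = 0.0439), a call lost in 10 of 21 alternative settings. Among those, the change was -1.24 (adjusted p = 0.216) without tumor line 2, and leaving out either null BM-MSC array (adjusted p = 0.154 and 0.0911) or any of the 4 wild-type arrays (0.0570 to 0.0652) also ended the call. The 4 called were 57.1% of the 7, below the 69.5% of all genes tested. Ptch1 (0.12, 95% interval -0.32 to 0.57) and Gli3 (-0.12, -0.27 to 0.03) did not pass, nor did Smo by the brighter probe, while by the second probe Smo fell by 0.87 ± 0.07 (adjusted p = 4.47e-05). With normexp the called changes kept their sign and were smaller for Gli1 (1.64), Hhip (0.39) and Ihh (-0.48).

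Against wild-type BM-MSC, Gli1 rose by 3.50 ± 0.10 (adjusted p = 4.48e-07), an 11.3-fold change, and Gli2 rose by 2.39 ± 0.11 (adjusted p = 2.94e-06), a 5.23-fold change. With normexp the Gli1 change was 1.99. Hhip did not pass (-0.06, 95% interval -0.42 to 0.30), and Ptch1 (0.25, -0.19 to 0.69) and Ihh did not pass. Smo fell by 0.17 ± 0.04 (adjusted p = 0.00807) by the brighter and by 1.07 ± 0.07 (adjusted p = 1.77e-05) by the second probe, and Gli3 fell by 0.19 ± 0.06 (adjusted p = 0.0306). The 4 called were again 57.1%, against 67.8% of all genes. Scaling to the median of the array moved the median change of all genes in this comparison by 0.13, and the small changes of Smo (-0.04 by the brighter probe) and Gli3 (-0.07) were then not called. Taking the 75th percentile over averaged probes, the setting run first, also ended the Gli3 call (-0.16, adjusted p = 0.0648) and the Smo call in ASC (-0.11, adjusted p = 0.0756). The Gli3 call was also lost without either array of the tumor line (adjusted p = 0.108 and 0.0802) or of wild-type BM-MSC (0.0979 and 0.0929). Both tumor line comparisons share the tumor line arrays, and the null BM-MSC arrays enter both the null and the tumor comparisons, so the lower Gli2 and Hhip of null BM-MSC and their rise in the tumor line are not independent. The macrophage and leukocyte markers summed to 13.9 to 14.8 in the tumor line, 22.4 to 23.5 in null BM-MSC and 28.8 to 29.1 in wild-type BM-MSC, with 8, 7 and 7 of 9 detected on both arrays. Itgam was the largest single part of that sum (mean level of 2.80 in the tumor line and 4.23 in null BM-MSC). It made up most of the sum in null BM-MSC but not in the tumor line. Tyrobp (-1.93 and -6.71), Lyz2 (-1.73 and -5.72), Cd68 (0.60 and -0.87) and Cd14 (1.93 and 0.48) stood higher in the tumor line. The osteoblast markers summed to 235 to 242 in the tumor line, with 6 of 9 detected, against 234 to 249 and 9 of 9 in null BM-MSC. Bglap (-5.82 and 3.43), Alpl (-5.45 and 2.23) and Sp7 (-5.80 and 1.39) were not well above background in the tumor line, Ibsp was at -4.41 and 5.69, and Spp1 (7.03 and 3.66) stood higher there. The endothelial markers summed to 2.83 to 3.38, 3.60 to 3.71 and 3.75 to 4.04, with Cdh5 not well above background on any array. Their part in the result was not tested.

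**Figure D4:**
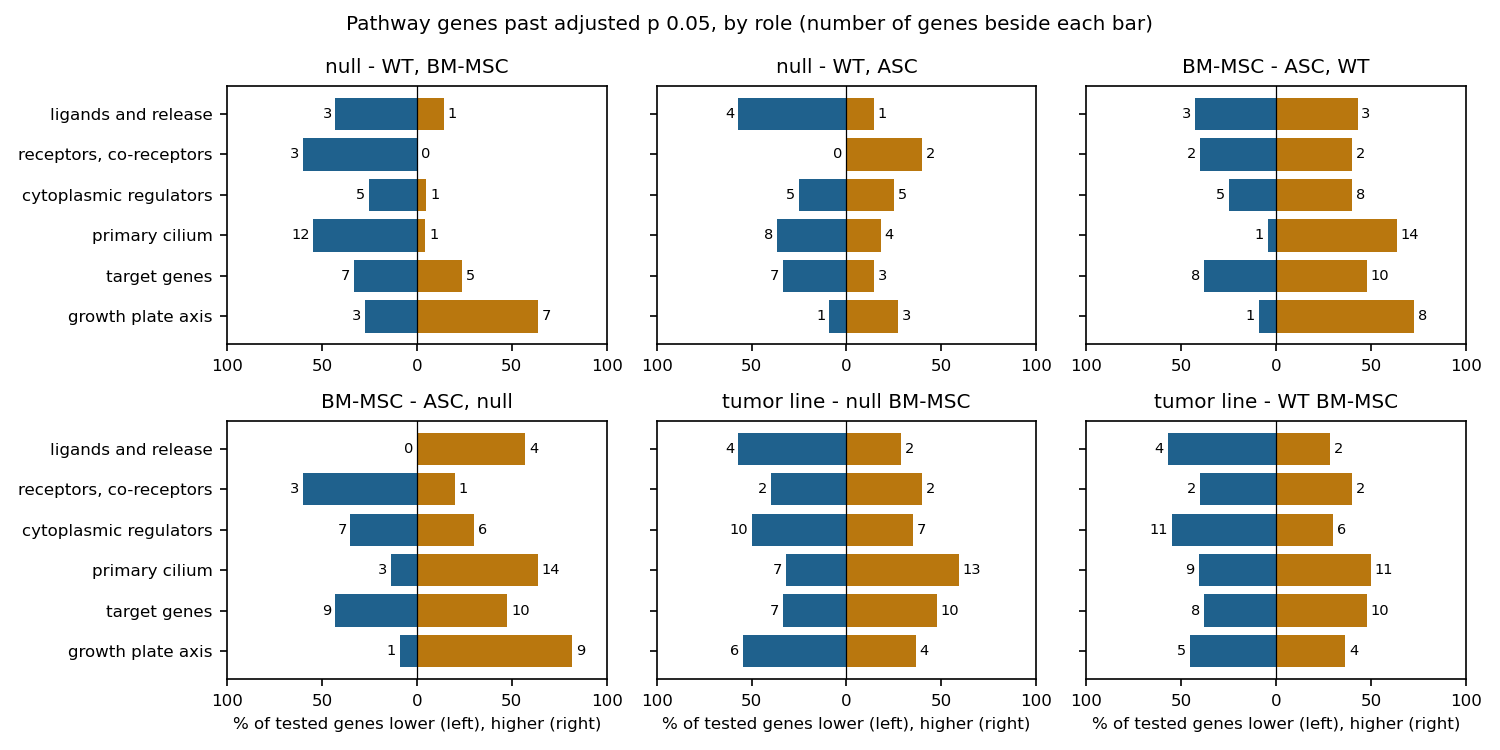
Share of the tested genes of each pathway list that were higher (right, percent) or lower (left, percent) at an adjusted p under 0.05 in 6 comparisons, with the number of genes beside each bar. In null BM-MSC 12 primary cilium genes were lower and 1 higher than in wild-type BM-MSC, while 14 were higher and 1 lower in wild-type BM-MSC than in wild-type ASC.

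The other genes of the pathway were read from 6 lists by role, 91 genes outside the 7, of which 84 were tested. In null against wild-type BM-MSC 14 were higher and 33 lower, with a median change of -0.15 against 0.01 over all genes. In ASC 18 were higher and 25 lower. Between tissues 45 were higher and 19 lower in BM-MSC among wild-type cells, and 43 higher and 22 lower among null cells. In the tumor line 37 were higher and 36 lower than in null BM-MSC, and 34 higher and 39 lower than in wild-type BM-MSC. The shares called were 56% for null against wild-type BM-MSC and 51.2% for ASC, against 39.5% and 41.5% of all genes tested. Between tissues they were 77.4% in null and 76.2% in wild-type cells, against 55.4% and 54%. Both tumor line comparisons had 86.9%, against 69.5% for null BM-MSC and 67.8% for wild-type BM-MSC. Over all genes tested, 4354 were called higher and 4566 lower in null BM-MSC, and 4594 and 4785 in null ASC. In BM-MSC against ASC these numbers were 5804 and 6405 among wild-type cells and 5883 and 6641 among null cells. In the tumor line they were 7809 and 7905 against null BM-MSC, and 7446 and 7874 against wild-type BM-MSC.

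Among the genes for ligand release, 7 of 10 were tested. Scube3, a secreted protein that helps release Hedgehog ligands, was well above background in BM-MSC only, at least 19.7-fold higher in wild-type BM-MSC than in wild-type ASC, and at least 14.3-fold lower in the tumor line than in null BM-MSC. Disp1, the transporter that releases lipid-bearing ligand, was higher in wild-type BM-MSC than in wild-type ASC by 1.26 ± 0.06 and fell by 0.70 ± 0.06 in null BM-MSC. Hhat, which attaches palmitate to the ligand, rose by 1.55 ± 0.05 in the tumor line over null BM-MSC. Gpc3, a glypican that binds Hedgehog ligand, was detected in the tumor line alone, at least 1.68-fold above null BM-MSC. In all, 4 of the 7 fell and 2 rose in the tumor line against null BM-MSC (85.7% against 69.5% of all genes).

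Among the 5 receptors and co-receptors, Gas1, Boc and Cdon are co-receptors that bind ligand beside Ptch1. Gas1 rose by 1.24 ± 0.08 in null ASC (adjusted p = 6.28e-05) and fell by 0.79 ± 0.08 in null BM-MSC (adjusted p = 0.000472), and the difference of these effects was -2.03 ± 0.11 (adjusted p = 9.04e-05). In the tumor line Boc fell by 3.39 ± 0.08 and Cdon fell by 1.95 ± 0.09 against null BM-MSC, while Gas1 rose by 1.12 ± 0.08. Lrp2, another gene of this list, was at least 11.2-fold higher in the tumor line than in null BM-MSC, where it was not well above background. In all, 2 of the 5 rose and 2 fell in this comparison (80% called against 69.5% of all genes). Cdon was also lower in wild-type BM-MSC than in wild-type ASC (change of -1.64 ± 0.09), with Gas1 (2.17 ± 0.08) and Boc (1.06 ± 0.08) higher.

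Among 20 cytoplasmic regulators, 6 were called in null BM-MSC (5 lower), which is 30% against 39.5% of all genes, and 10 in null ASC (5 lower), 50% against 41.5%. Sufu, the main inhibitor that binds Gli proteins, was called in none of the 7 comparisons. Kif7, a kinesin that organises the tip of the cilium for Gli control, fell by 0.34 ± 0.07 in null BM-MSC, rose by 0.38 ± 0.07 in null ASC and fell by 0.85 ± 0.07 in the tumor line against null BM-MSC. Stk36, a kinase on this list, fell by 0.78 ± 0.10 in null BM-MSC. Arrb2, a beta-arrestin that takes part in moving Smo, rose by 2.13 ± 0.04 in the tumor line against null BM-MSC and by 0.88 ± 0.04 in null ASC. Between wild-type tissues Rab23, a small GTPase that restrains the pathway, was higher in BM-MSC by 1.21 ± 0.07, and Gpr161, a ciliary receptor that keeps Gli proteins in repressor form, was lower (change of -0.83 ± 0.10).

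Of the 22 genes of the primary cilium, the organelle through which Smo acts, 12 fell and 1 rose in null BM-MSC (59.1% called against 39.5% of all genes), with Kif3a, a motor of intraflagellar transport, at -0.65 ± 0.05, Ofd1 at -0.56 ± 0.05 and Inpp5e at -0.55 ± 0.05, and with Ift20 at 0.47 ± 0.05. In null ASC 8 fell and 4 rose (54.5% against 41.5%), led by Wdr35 at -0.95 ± 0.05. In wild-type BM-MSC 14 were higher and 1 lower than in wild-type ASC (68.2% against 54%), with Rpgrip1l at 1.37 ± 0.09 and Ift80 at 0.88 ± 0.05. In the tumor line 13 rose and 7 fell against null BM-MSC (90.9% against 69.5%), with Ift80 at 1.16 ± 0.05 and Kif3b at -1.47 ± 0.07.

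Of 24 target genes outside the 7, 21 were tested, with calls in both directions. In the tumor line against null BM-MSC, where Gli1 and Gli2 rose, 10 were higher and 7 lower (81% called against 69.5% of all genes). Sfrp1, a secreted Wnt inhibitor, fell by 6.16 ± 0.09, Bmp4, a bone morphogenetic protein, fell by 6.20 ± 0.10, and Foxf1, a mesenchymal forkhead factor, was at least 26.0-fold lower. Prdm1, detected in the tumor line alone, was at least 6.70-fold higher there. In null ASC, where Gli1 was higher as well, 3 were called higher and 7 lower (47.6% against 41.5%, near the background), with Bmp4 higher by 2.59 ± 0.10, Foxm1, a mitotic forkhead factor, higher by 1.61 ± 0.06 and Ccnd1, which encodes cyclin D1, at -2.21 ± 0.07. In null BM-MSC 5 were called higher and 7 lower (57.1% against 39.5%), with Ccnd2, which encodes cyclin D2, at -1.55 ± 0.06 and Sfrp1 at -2.73 ± 0.09. Prdm1 is in the counts of both null comparisons although it was not well above background in any of those 4 groups. Mycn, at 1.38 ± 0.02 in wild-type ASC, was not well above background in either BM-MSC group, at least 129-fold lower in wild-type BM-MSC. Bmp4 was higher in wild-type BM-MSC than in wild-type ASC by 7.14 ± 0.10.

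Of 12 genes of the growth plate axis in which Ihh acts, 11 were tested. In null BM-MSC 7 were called higher and 3 lower (90.9% against 39.5% of all genes), and in null ASC 3 higher and 1 lower (36.4% against 41.5%), the last being Col2a1, which was not well above background on any ASC array. Pthlh was not well above background in wild-type BM-MSC, against which the signal was at least 3.46-fold higher in null cells of the marrow and at least 16.5-fold higher in the tumor line. Pth1r, its receptor, rose by 3.18 ± 0.32 in null BM-MSC and fell by 7.41 ± 0.32 in the tumor line against null BM-MSC, and Fgfr3, a brake on chondrocyte growth, rose by 2.75 ± 0.22 and fell by 7.43 ± 0.22. Sox9, the chondrocyte master factor, rose by 2.57 ± 0.07 in null ASC and fell by 0.58 ± 0.07 in null BM-MSC. Col2a1, the collagen of cartilage, was not well above background in either ASC group and at least 3193-fold higher in wild-type BM-MSC than in wild-type ASC, and it fell by 7.40 ± 0.10 in the tumor line against null BM-MSC, while Acan, the cartilage proteoglycan, rose by 9.72 ± 0.16, with 1 of 2 null BM-MSC arrays well above background. These genes overlap the chondrocyte marker list, and the part of chondrocyte-like cells in the result was not tested.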

How the data were processed

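RNA of 10 duplicate cultures was labelled with Cy3 and read on single-colour arrays. The intensity values are the processed signals of Feature Extraction 10.7.3.1, background-subtracted by that program, per the file headers, with probe coordinates on mm9. The deposited table of log2 values served as an alternative only, whose scaling the sources used here do not give. The submitters' processing notes name limma without a version.

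Control and outlier spots were left out, spots of a probe averaged, and each array's 75th percentile over spots subtracted in log2. This percentile was first taken over averaged probes. It was changed to spots after those results had been seen, because the wording of the rule and an earlier analysis of these data use spots. The first version called 8808 genes in null against wild-type BM-MSC where the present one calls 8920, and 2 members in place of 3 in null ASC and 3 in place of 4 in the tumor line against wild-type BM-MSC. The probe with the highest mean stands for a gene, and the 22596 genes tested were those detected well above background by both arrays in 1 group or more.

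limma 3.58.1 in R 4.3.3 fitted 5 group means over all 10 arrays (lmFit, eBayes; 5 residual and 1.35 prior degrees of freedom), with Benjamini-Hochberg adjustment over all genes tested, a threshold of 0.05, and 95% intervals. The number of arrays limits the precision, and with 2 cultures per group p-values measure the spread between cultures. The fit was tested on simulated data. Of 7 designed contrasts, 6 compared a pair of groups and 1 the null effects of both tissues, and 4 more pairs were added after the data had been seen, for neighbours in the order of levels only. Where a group was not well above background, folds are lower bounds against the lowest signal well above background on each array or the probe's own if higher. For Gli1 in wild-type ASC the probe's own signal was higher on both arrays, so its folds there are fitted values. Members, lists and tests were chosen with earlier results of these data known. Named pathway genes are a selection, mostly from the called genes with the largest changes within each list, and some genes with larger changes are not named. Alternatives covered background correction (normexp with an offset of 50, whose 2 parts were not separated), scaling, filter, probe choice, arrays in the fit, leaving out each array, and a replicate block.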

Additional observations from a re-analysis of the deposited data

Results flagged for a closer look

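The fitted difference between the null effects in BM-MSC and ASC had an adjusted p under 0.05 (limma) for 4 of the 7 genes. Of the 84 other pathway genes tested, 40 passed, which is 47.6% against 31.8% of all genes tested. Given here are the 4 genes and 21 of the 40, up to 4 per list with the largest differences. For 20 of these 25 every group compared had an array well above background. The other 5, Hhip, Gli1, Scube3, Prdm1 and Pthlh, were not well above background in 1 or more of the 4 groups, so their values are fitted values only. Those of Hhip, Scube3, Prdm1 and Pthlh support no difference. For Gli1 the fitted null effect was 4.28-fold in ASC and 1.74-fold in BM-MSC, but its difference no longer passed with normexp or with the mean of both probes. The difference, BM-MSC minus ASC in log2, was -1.64 for Hhip, -1.30 for Gli1, -0.72 for Gli2 and -0.80 for Gli3. Hhip was not well above background in either ASC group, and Gli1 was not in wild-type ASC.

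Among ligand release genes the difference was 1.09 for Gpc6, 1.03 for Hhat, -0.64 for Scube3 and -0.36 for Disp1, with Scube3 not well above background in ASC. Among co-receptors it was -2.03 for Gas1 and -0.55 for Cdon. Among cytoplasmic regulators it was -0.74 for Arrb2, -0.72 for Kif7, -0.56 for Stk36 and -0.35 for Prkar1a. Among cilium genes it was -0.64 for Ofd1, 0.56 for Kif3b, 0.51 for Wdr35 and -0.45 for Kif3a.

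Among target genes and the growth plate axis it was -3.35 for Bmp4, -3.26 for Prdm1, 2.60 for Pthlh, -2.20 for Sfrp1, -3.16 for Sox9, 2.91 for Pth1r and 1.88 for Fgfr3. Prdm1 was not well above background in any of these 4 groups, and Pthlh was well above it in null BM-MSC alone among them, so neither value was measured on both sides.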

How the results depend on the processing

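Of the single-gene values under the alternatives, 1020 kept their direction and side of the threshold, 49 lost a call, 10 gained one and 20 changed sign. None of those 20 had been called as reported, and 1 passed after its sign changed, that of Smo between wild-type tissues by the second probe (adjusted p = 0.0330). The number of the 7 genes called fell to 2 with normexp in the difference of the null effects and to 2 with scaling to the median in the tumor line against wild-type BM-MSC. Restricted to genes detected above background on each of the 10 arrays, it was 1 in null against wild-type BM-MSC, 2 in the difference, 3 in each tissue comparison and 1 in the tumor line against null BM-MSC, since Hhip, Gli1 and Ihh then leave the test. Of the pathway list, 24 genes were called in the difference with median scaling and 28 in null against wild-type ASC when only those groups were fitted.

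Signs changed for Hhip in null against wild-type ASC with normexp (-0.11) and the deposited log2 table (-0.17), for Smo between null tissues with normexp (-0.0078), and for Ihh between wild-type tissues with normexp (-0.023). Smo between wild-type tissues was 0.068 with quantile normalization, 0.016 with the median, 0.099 with the deposited table, 0.10 with the mean of probes and 0.22 by the second probe. Hhip in the tumor line against wild-type BM-MSC was 0.043 with quantile normalization, 0.068 with the median and 0.11 with the deposited table. Smo in the tumor line against null BM-MSC was 0.032 with the median, the difference of the null effects of Smo was -0.012 with the deposited table, and Ptch1 in the tumor line against null BM-MSC was -0.082 with the mean of probes. The cause was not tested.

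Leaving out each array in turn, Ptch1 ranged from -0.090 to 0.34 in null against wild-type BM-MSC and from -0.024 to 0.27 in the tumor line against null BM-MSC, Ihh from -1.44 to 0.32 between null tissues, and Hhip from -0.13 to 0.0094 in the tumor line against wild-type BM-MSC.

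Same-numbered cultures did not deviate together (correlations from -0.122 to 0.116), so no pairing by number was seen. With 2 arrays per group this check cannot exclude one. With the number as a replicate block, 8507 genes in place of 8920 were called in null against wild-type BM-MSC. The block ended the calls of Ihh in the tumor line against null BM-MSC (-2.06, adjusted p = 0.0604) and of Smo in null ASC (-0.13, adjusted p = 0.0643), and Ptch1 passed in null ASC (-0.37, adjusted p = 0.0466).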
